A study of Mus musculus with 6 samples.

Results

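The genes described here are the cytochrome P450 genes of families 1 to 4 in mouse kidney. They were set by a rule on names, with earlier results of these data known. The rule took every symbol of the deposited table made of Cyp, a digit from 1 to 4, a lower-case letter and a number. This gave 85 of the 24346 symbols, with 3 in family 1, 50 in family 2, 9 in family 3 and 23 in family 4. Kidney RNA of C57BL/6 mice was sequenced in 3 libraries labelled IVCC and 3 labelled Sham, which name the surgery. The series title concerns renal congestion, and the comparison asks how the transcriptome differs between kidneys of the 2 surgeries. The labels do not spell out IVCC, give neither sex, age nor time after surgery, and do not say that replicates were separate mice. The p-values therefore measure the spread between these libraries.

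Cytochrome P450 enzymes are haem proteins of the endoplasmic reticulum that insert an oxygen atom into fatty acids, steroids and foreign compounds, with electrons from the reductase Por. In the kidney they are known above all from proximal tubule cells. There the Cyp4a enzymes hydroxylate the end of fatty acid chains, including arachidonic acid, and the Cyp2j and Cyp2c enzymes turn arachidonic acid into epoxides. These 2 classes of lipid act on renal vessels and on salt transport. Family 1 is known for induction by the aryl hydrocarbon receptor, and family 3 as the main drug-oxidising family of the liver.

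Levels are in FPKM (fragments scaled by transcript length and by the number mapped in the library), so they can be compared between genes. Deposited FPKM summed to 719896 to 927860 in IVCC and 775720 to 1118258 in Sham. The highest of these sums, in Sham replicate 3, stood apart from the other 5. FPKM give no read totals, but the spacing of the lowest values corresponds to 8240000 to 9150000 nominal reads for the IVCC libraries and 6250000 to 7180000 for the Sham libraries. One read in a transcript of 2000 bp was then worth 0.0607 to 0.0888 FPKM. Of the 85 members, 31 had a mean of at least 1 FPKM and were tested, and 54 lay below, 26 of them listed at 0 in all 6 libraries. No member was called. An adjusted p under 0.05 in limma was reached by 0 of 12090 tested genes (0%), and the 31 members had adjusted p-values from 0.924 to 0.998. An unadjusted p under 0.05 was found for 431 genes (3.56%), of which 205 were higher (1.7%) and 226 lower (1.87%) in IVCC. Among the 31 members there were 2 (6.45%), Cyp1b1 higher and Cyp2j9 lower. There were 0 without IVCC replicate 2 (1.82% of all genes), 3 without Sham replicate 2 (4.67%) and 4 without IVCC replicate 3 (8.52%). Only 1 was left without IVCC replicate 1 (1.79% of all genes), Sham replicate 1 (3.07%) or Sham replicate 3 (3.02%).

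The groups did not overlap, with each IVCC value above or below each Sham value, for 7 of the 31 tested members (22.6%), against 8.31% of all tested genes. Of these, Cyp1b1 and Cyp2d22 were higher in IVCC (4.09% of all genes), and Cyp2j5, Cyp2j9, Cyp2j11, Cyp4a31 and Cyp4f14 were lower (4.22% of all genes). When fold changes were corrected for length and GC content of transcripts, only Cyp1b1 and Cyp2j11 (6.45%) kept this separation, against 9.89% of all genes. After rescaling every library to the same sum (the TPM scale) 5 members had it (16.1%), against 7.68% of all genes. They were Cyp1b1, Cyp2d22, Cyp2c44, Cyp4a12b and Cyp4b1, so none of the 5 that were lower in IVCC kept it there. With fewer libraries separation is easier: 12 members (38.7%) had it without IVCC replicate 3, against 32.5% of all genes, and 12 without Sham replicate 2, against 22% of all genes. The median log2 fold change of the tested members, IVCC minus Sham on the log2(FPKM + 1) scale, was -0.09, and that of all tested genes was -0.01. There were 21 members with a lower and 10 with a higher fitted value. This direction was lost without Sham replicate 3 alone, where 14 were lower and 17 higher, with a median of 0.0081. Without the libraries numbered 3 of both groups 18 were lower and 13 higher, with a median of -0.046. The TPM scale turned the split over all libraries to 10 lower and 21 higher, but it moved the median of all genes to 0.15, which lies above the members' 0.09.

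**Figure D1:**
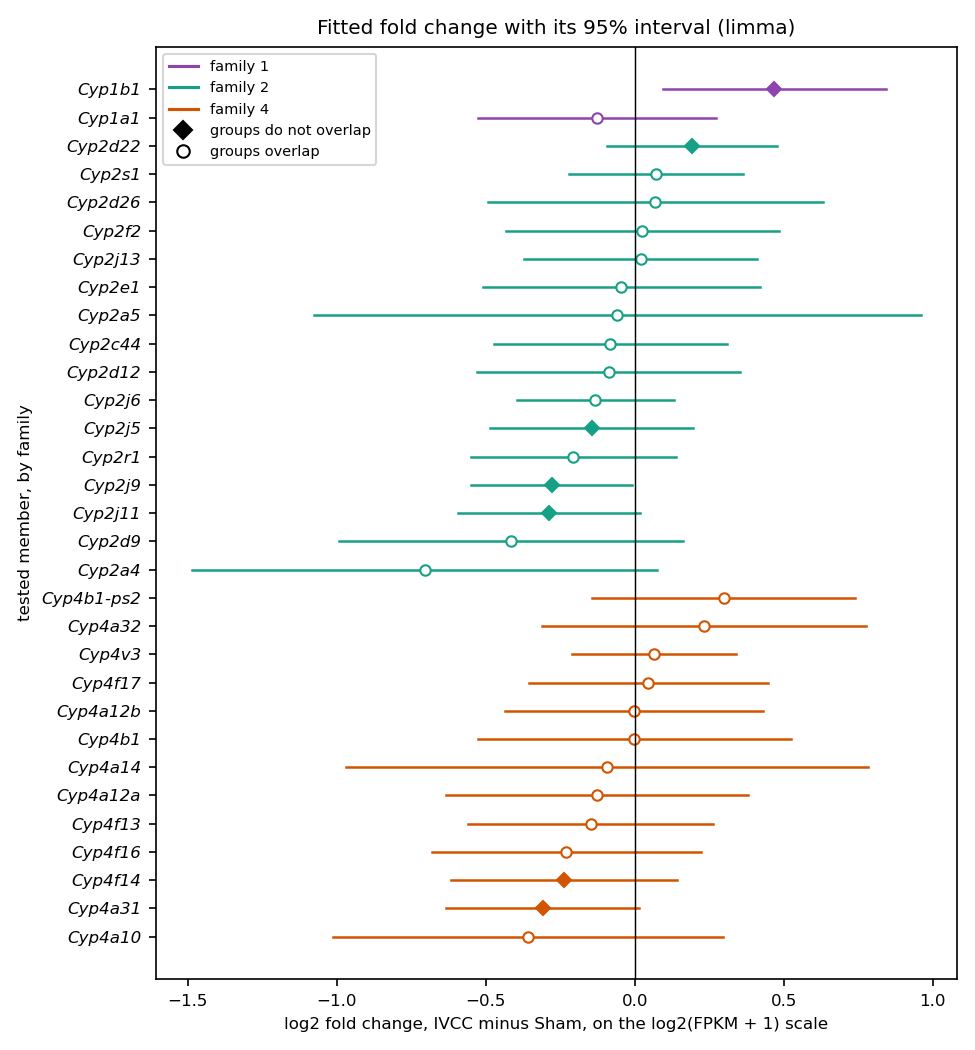
Log2 fold change of the 31 tested members, IVCC minus Sham, on the log2(FPKM + 1) scale (x axis), by family (y axis and colour). Bars are 95% intervals from limma, and filled diamonds mark the 7 members whose groups do not overlap. The largest positive value is Cyp1b1 (0.47) and the largest negative one Cyp2a4 (-0.70), and 29 of the 31 intervals include 0.

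Kidney P450 transcripts were dominated by 3 genes. Cyp4b1, an enzyme of lung and kidney known for activating foreign compounds, stood at 2954, 2886 and 3360.2 FPKM in the IVCC libraries, in the order of replicate numbers used throughout. In Sham it stood at 2826, 2729 and 3729.55 FPKM. It was thus the gene with the 16th highest mean of the table, and the Sham range enclosed the IVCC range. Cyp2e1, which oxidises small molecules such as ethanol and acetone, stood at 1552, 1789 and 2021 FPKM in IVCC, compared with 1662, 1781 and 2082 FPKM in Sham. These groups overlapped as well, and both genes were highest in replicate 3 of each group. Their log2 fold changes were 0.00 with a 95% interval from -0.53 to 0.52 for Cyp4b1, and -0.04 with an interval from -0.51 to 0.42 for Cyp2e1. The third, the epoxygenase Cyp2j5, had a mean of 616 ± 17.1 FPKM in IVCC, compared with 683 ± 65.6 FPKM in Sham (SD, n = 3 each). Cyp4b1 made up 40.0% to 45.0% of the summed FPKM of all 85 members in each library, Cyp2e1 23.1% to 26.9%, and the 3 genes together 72.9% to 79.8%. The members together made up 0.789% to 0.924% of the FPKM of a library.

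**Figure D2:**
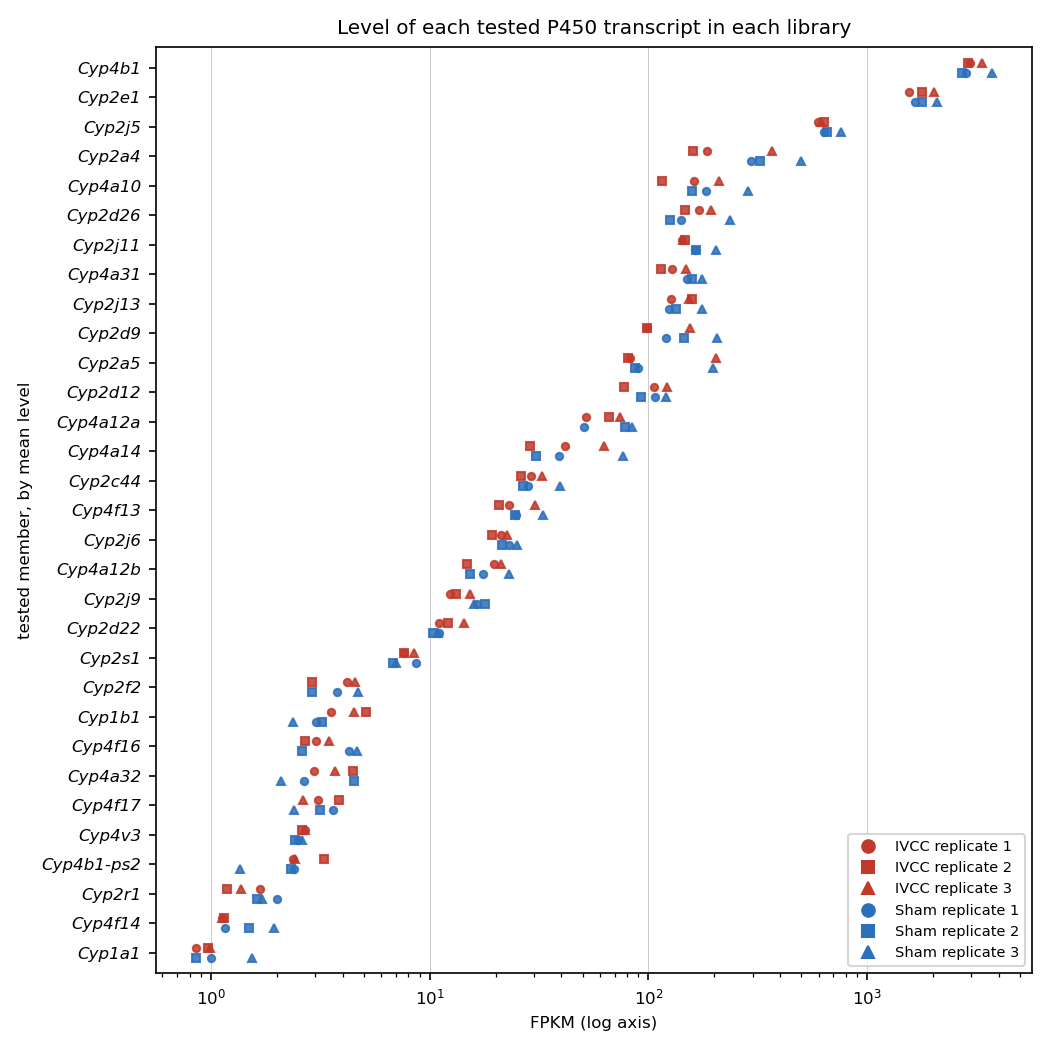
FPKM of the 31 tested members in each of the 6 libraries (x axis, log scale), ordered by mean level (y axis). Each point is 1 library, with IVCC in red and Sham in blue. Levels run from about 1 FPKM for Cyp1a1 (mean 1.03) to a mean of 3081 FPKM for Cyp4b1, and the spread within a group exceeds the distance between groups for most members.

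Cyp4b1 lies on chromosome 4 (115624725 to 115647723, minus strand, GRCm38) and Cyp2e1 on chromosome 7 (140763739 to 140774987, plus strand). The 150 bases before each RefSeq start site are shown because these genes gave most of the P450 RNA measured. Gene positions are from GENCODE, whose starts differ, so part of each window lies inside the gene positions given. The windows are RefSeq sequences on GRCm38.p6, chr4:115647722-115647871 on the minus and chr7:140763669-140763818 on the plus strand. Capitals mark a match on either strand to 1 of 4 motifs: TATAAA (the TATA box core), GTTAAT (a half-site of HNF1), AGGTCA (a half-site of nuclear receptors) or GCGTG (the core bound by the aryl hydrocarbon receptor). Cyp2e1 has TATAAA starting at position -31 relative to the start, and Cyp4b1 has none of the 4 in this window.
Cyp4b1: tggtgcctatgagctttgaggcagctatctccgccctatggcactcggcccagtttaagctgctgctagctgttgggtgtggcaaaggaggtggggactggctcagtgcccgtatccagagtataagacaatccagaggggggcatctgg
Cyp2e1: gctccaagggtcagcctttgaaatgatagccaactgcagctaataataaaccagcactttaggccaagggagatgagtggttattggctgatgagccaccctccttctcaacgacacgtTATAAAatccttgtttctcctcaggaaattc
Promoters were found for 21 of the 31 tested members. In the 250 bases before the start, TATAAA was present in 8 of these 21, against 12.97% of 27025 promoters of all genes, GTTAAT in 4 (6.52%), AGGTCA in 2 (13.8%) and GCGTG in 7 (28.2%). A match is a description of the letters only.

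None of the Cyp4a genes, which encode the fatty acid omega-hydroxylases, was called in limma, with or without the replicate number as a block. There are 8 Cyp4a members, of which 6 were tested. Cyp4a10, a classical target of the fatty acid receptor PPAR-alpha, was the most abundant, at 161, 116 and 211 FPKM in IVCC and 183, 159 and 286 FPKM in Sham. In each group its highest value was in replicate 3 and its lowest in replicate 2, and the groups overlapped (log2 fold change -0.36, 95% interval -1.01 to 0.30). Cyp4a31 stood at 128, 115 and 148.6 FPKM in IVCC, compared with 149.8, 158 and 176 FPKM in Sham. All 3 of its IVCC values lay below the Sham values, by a narrow margin between IVCC replicate 3 and Sham replicate 1. Its log2 fold change was -0.31 with a standard error of 0.14 (limma, adjusted p = 0.924), and -0.13 on the TPM scale, where the groups overlapped. With the replicate number as a block its unadjusted p was 0.0054 and its adjusted p 0.12 (limma). Cyp4a10 also had an unadjusted p under 0.05 in that fit, as did 19.8% of all genes.

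Cyp4a12a, known as the main arachidonic acid hydroxylase of male mouse kidney, stood at 52.0, 66.3 and 74.4 FPKM in IVCC, compared with 51.0, 78.3 and 84.0 FPKM in Sham. Its near copy Cyp4a12b was lower, at 19.7, 14.9 and 21.2 FPKM in IVCC and 17.6, 15.4 and 23.1 FPKM in Sham. Both pairs of groups overlapped almost fully, with log2 fold changes of -0.13 and 0.00. Cyp4a14, another PPAR-alpha target, stood at 41.6, 28.8 and 62.5 FPKM in IVCC, compared with 38.9, 30.6 and 76.6 FPKM in Sham. Replicate 3 was again the highest of both groups, and the interval of its log2 fold change ran from -0.97 to 0.78. Cyp4a32, the least abundant, had a mean of 3.70 ± 0.739 FPKM in IVCC, compared with 3.09 ± 1.27 FPKM in Sham.

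Over the 6 tested Cyp4a genes the median log2 fold change was -0.11, with 5 lower and 1 higher in IVCC. This direction rested on single libraries, and its sign on the scale. Without Sham replicate 3 the median was 0.03, without IVCC replicate 2 it was -0.01, and on the TPM scale it was 0.06 with 2 of 6 lower. Minus the median of all genes it was -0.10 on the deposited scale and -0.083 on the TPM scale. Without Sham replicate 3 this difference was 0.026, and without IVCC replicate 2 it was -0.0019. The summed Cyp4a level was 406, 345 and 522 FPKM in IVCC and 443, 446 and 648 FPKM in Sham. All 6 genes lie within a cluster on chromosome 4, from Cyp4a12a (starting at 115299046) to Cyp4a32 (ending at 115621602), next to Cyp4b1. Copies in this cluster share sequence, and 40.8% of the read-length windows of Cyp4a12a transcripts (75 bases) also occur in another gene, all of them in Cyp4a12b. For Cyp4a32 this share was 30.4%, for Cyp4a10 18.4%, for Cyp4a31 13.15% and for Cyp4a14 0%. How the authors' counting split such reads is not given in the sources used here, so the levels of Cyp4a12a, Cyp4a12b, Cyp4a10, Cyp4a31 and Cyp4a32 are uncertain.

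The Cyp2j genes held 3 of the 5 tested members whose IVCC values all lay below Sham. Cyp2j enzymes are epoxygenases of arachidonic acid, and Cyp2j5 is the main one of the mouse proximal tubule. Cyp2j5 stood at 599, 633 and 617 FPKM in IVCC, compared with 636, 655 and 758 FPKM in Sham. The groups did not overlap, with only a small gap between IVCC replicate 2 and Sham replicate 1 (log2 fold change -0.14, standard error 0.15, limma adjusted p = 0.924). Cyp2j11 stood at 142, 147 and 143 FPKM in IVCC, compared with 163, 164 and 205 FPKM in Sham. The 3 IVCC libraries were within 5 FPKM of each other and lay below every Sham library (log2 fold change -0.29, standard error 0.13, limma adjusted p = 0.924). Cyp2j9 stood at 12.4, 13.2 and 15.3 FPKM in IVCC, compared with 16.5, 17.8 and 15.955 FPKM in Sham, again without overlap. Its log2 fold change was -0.28 with a standard error of 0.12 (limma, unadjusted p = 0.0453, adjusted p = 0.924). In limma the unadjusted p was 0.565 on the TPM scale, 0.0601 with median-ratio scaling, 0.0503 with quantile normalization and 0.0598 with the length and GC correction. Leaving out IVCC replicate 1 gave 0.171, IVCC replicate 2 gave 0.11, Sham replicate 1 gave 0.096 and Sham replicate 2 gave 0.122.

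The other tested Cyp2j genes overlapped between the groups. Cyp2j6 stood at 21.2, 19.3 and 22.5 FPKM in IVCC, compared with 22.9, 21.3 and 25.0 FPKM in Sham. Cyp2j13, known as a kidney P450 that is higher in male mice, stood at 127, 158 and 153 FPKM in IVCC, compared with 124, 134 and 176 FPKM in Sham. The fitted difference (log2 fold change) was 0.02, with an interval from -0.37 to 0.41. Below the filter, Cyp2j8 stood at 0.368, 0.267 and 0.413 FPKM in IVCC, compared with 1.41, 0.945 and 0.988 FPKM in Sham, and all IVCC values lay below all Sham values. At the nominal depths these values stand for only 3.98, 2.99 and 4.96 reads in IVCC and 12.8, 8.91 and 8.11 reads in Sham. In a fit with no filter on low values Cyp2j8 had a log2 fold change of -0.64 and an adjusted p of 0.763 (limma). Cyp2j12 was listed above 0 in only 1 library.

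**Figure D3:**
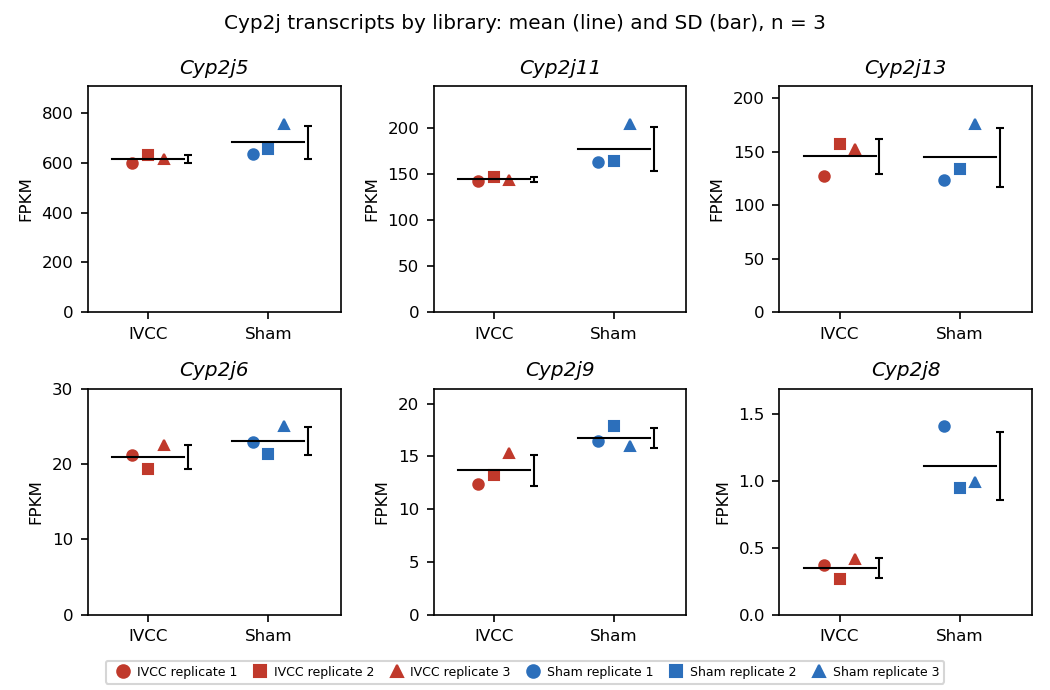
FPKM of 6 Cyp2j transcripts in each library (y axis from 0), by group (x axis), with the mean as a line and the SD as a bar (n = 3). The IVCC points lie below every Sham point for Cyp2j5, Cyp2j11, Cyp2j9 and Cyp2j8, and the groups overlap for Cyp2j13 and Cyp2j6.

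Of the 5 tested Cyp2j genes 4 were lower in IVCC, with a median log2 fold change of -0.14. This median kept its sign without any 1 library (-0.19 to -0.08), but on the TPM scale it was 0.03 with 2 of 5 lower, and after quantile normalization 3 of 5 were lower. On the TPM scale the groups of Cyp2j5, Cyp2j9 and Cyp2j11 overlapped, and the subfamily median lay 0.11 below that of all genes, against 0.14 below on the deposited scale. A ratio of 2 genes in the same library does not depend on its scaling. The ratio of Cyp2j11 to Cyp2j13 was 1.12, 0.931 and 0.937 in IVCC and 1.31, 1.22 and 1.16 in Sham, without overlap. The ratios to Cyp2j13 overlapped for Cyp2j5 (4.01 to 4.71 in IVCC, 4.30 to 5.12 in Sham), Cyp2j9 (0.0840 to 0.1003 in IVCC, 0.0905 to 0.133 in Sham) and Cyp2j6 (0.122 to 0.167 in IVCC, 0.142 to 0.185 in Sham). These ratios were chosen after the values had been seen and carry no test.

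The 5 tested Cyp2j genes lie on the minus strand of chromosome 4, from Cyp2j13 (96027534 to 96077546) through Cyp2j11 (96294508 to 96348662), Cyp2j6 (96516138 to 96553661) and Cyp2j9 (96568429 to 96591578) to Cyp2j5 (96628773 to 96664154). None of their read-length windows occurs in another gene's transcripts, so exact sharing of reads does not enter their levels. The 150 bases before each RefSeq start are shown, for the 3 genes without overlap first and then for the 2 others. Except for Cyp2j11, part of each window lies inside the GENCODE gene positions given. The windows are RefSeq sequences on GRCm38.p6, minus strand: chr4:96664120-96664269, chr4:96591486-96591635, chr4:96348681-96348830, chr4:96553652-96553801 and chr4:96077541-96077690. Capitals mark a match to 1 of the same 4 motifs.
Cyp2j5: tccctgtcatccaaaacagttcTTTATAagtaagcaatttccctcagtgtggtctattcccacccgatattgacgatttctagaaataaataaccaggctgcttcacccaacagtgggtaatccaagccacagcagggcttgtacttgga
Cyp2j9: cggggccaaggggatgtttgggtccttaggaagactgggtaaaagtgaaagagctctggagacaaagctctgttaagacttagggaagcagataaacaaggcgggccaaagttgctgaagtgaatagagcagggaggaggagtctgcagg
Cyp2j11: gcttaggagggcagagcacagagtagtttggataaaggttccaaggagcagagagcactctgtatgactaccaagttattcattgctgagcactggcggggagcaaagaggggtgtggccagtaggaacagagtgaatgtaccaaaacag
Cyp2j6: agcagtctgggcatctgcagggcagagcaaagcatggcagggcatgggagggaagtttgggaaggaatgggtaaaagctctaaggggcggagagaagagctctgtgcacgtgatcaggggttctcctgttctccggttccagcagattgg
Cyp2j13: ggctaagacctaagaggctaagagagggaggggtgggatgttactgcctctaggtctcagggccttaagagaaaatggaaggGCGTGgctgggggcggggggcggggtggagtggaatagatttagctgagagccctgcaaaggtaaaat
Cyp2j5 has TATAAA on the reverse strand at position -128 relative to its start, and AGGTCA at position -197, outside the bases shown. Cyp2j13 has GCGTG at position -68 and Cyp2j9 has it at position -171, also outside the bases shown. Cyp2j11 and Cyp2j6 have none of the 4 motifs in the 250 bases before their starts, and no motif is shared by the 3 genes without overlap.

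Cyp2a4 had the most negative fitted difference of the tested members, and its near copy Cyp2a5 had one of -0.06, with an interval from -1.08 to 0.96. Cyp2a4 encodes a steroid hydroxylase and Cyp2a5 a coumarin hydroxylase. Cyp2a4 stood at 186, 160.02 and 367 FPKM in IVCC, compared with 295, 325 and 497 FPKM in Sham. Replicate 3 was the highest of each group, and IVCC replicate 3 exceeded 2 of the Sham libraries (log2 fold change -0.70, standard error 0.34, limma adjusted p = 0.924). Cyp2a5 stood at 82.5, 80.4 and 204 FPKM in IVCC, compared with 89.2, 86.7 and 198 FPKM in Sham. Both replicates 3 lay more than 100 FPKM above the rest, and among replicates 1 and 2 the IVCC values lay slightly below the Sham values. The ratio of Cyp2a4 to Cyp2a5 was 2.26, 1.99 and 1.80 in IVCC and 3.31, 3.75 and 2.51 in Sham. Every IVCC ratio thus lay below every Sham ratio, whatever the scaling of a library. The ratio was chosen after its values had been seen and carries no test.

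**Figure D4:**
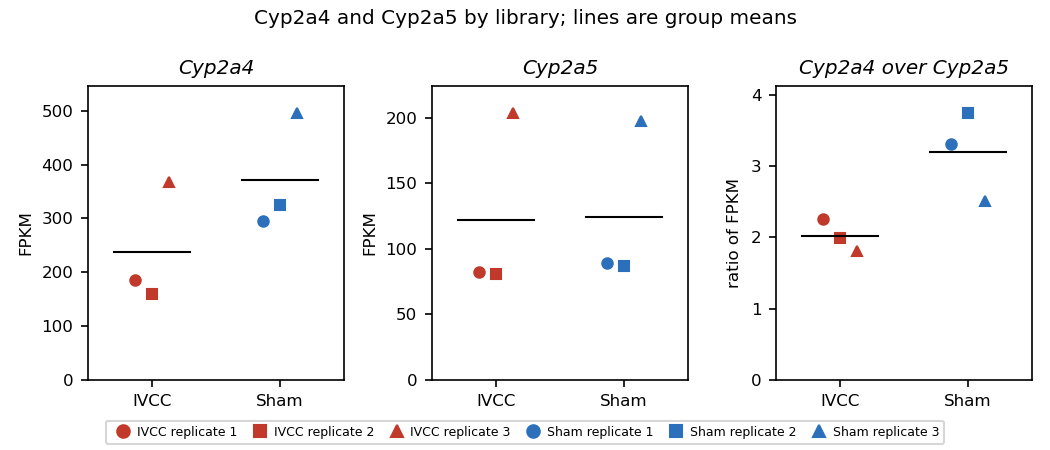
FPKM of Cyp2a4 and Cyp2a5 and the ratio of the former to the latter in each library (y axes from 0), by group (x axis), with group means as lines. The ratio is 1.80 to 2.26 in IVCC and 2.51 to 3.75 in Sham, while Cyp2a5 itself spans 80.4 to 204 FPKM in IVCC and 86.7 to 198 FPKM in Sham.

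These genes are hard to tell apart, since 22.1% of the read-length windows of Cyp2a4 transcripts and 25.5% of those of Cyp2a5 occur in another gene, and how such reads were shared out was not tested. Both lie on the plus strand of chromosome 7, Cyp2a4 at 26307169 to 26315088 and Cyp2a5 at 26835305 to 26843548. Their promoters are shown because the copies diverge in level while being nearly the same in sequence: 147 of 150 aligned bases are identical, from position -150 in Cyp2a4 and from -151 in Cyp2a5. The sequences are from RefSeq on GRCm38.p6, chr7:26307042-26307191 and chr7:26835188-26835337, and capitals mark the mismatches. The last bases of both windows lie inside the GENCODE gene positions given.
Cyp2a4: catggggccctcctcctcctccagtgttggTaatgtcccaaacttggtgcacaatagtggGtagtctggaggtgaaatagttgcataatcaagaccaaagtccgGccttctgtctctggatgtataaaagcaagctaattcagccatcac
Cyp2a5: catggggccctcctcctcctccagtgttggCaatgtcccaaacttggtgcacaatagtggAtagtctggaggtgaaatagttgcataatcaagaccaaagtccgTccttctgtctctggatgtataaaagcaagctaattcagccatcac
Counted from 1 at the first base shown, the differences from Cyp2a4 to Cyp2a5 are T31C, G61A and G105T. Both promoters hold TATAAA, at position -28 in Cyp2a4 and -29 in Cyp2a5, and GTTAAT at positions -160 and -161, outside the bases shown.

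Cyp2d enzymes oxidise many basic drugs. There are 10 Cyp2d members, of which 4 were tested, and their directions were split, 2 higher and 2 lower. Cyp2d26 stood at 170.3, 147 and 193 FPKM in IVCC, compared with 141, 126 and 235 FPKM in Sham. Cyp2d9, known as a male-specific steroid hydroxylase of mouse liver, stood at 98.7, 98.4 and 154 FPKM in IVCC, compared with 119.9, 146 and 205 FPKM in Sham. The groups of both genes overlapped, with log2 fold changes of 0.07 for Cyp2d26 and -0.42 for Cyp2d9 (interval -0.99 to 0.16). Cyp2d12 had a mean of 102 ± 22.6 FPKM in IVCC, compared with 107 ± 13.6 FPKM in Sham. Cyp2d22, the mouse gene most like the human drug-metabolising CYP2D6, stood at 11.08, 12.1 and 14.4 FPKM in IVCC, compared with 11.02, 10.4 and 10.9 FPKM in Sham. Its groups touched without overlapping, IVCC replicate 1 lying just above Sham replicate 1 (log2 fold change 0.19, standard error 0.12, limma adjusted p = 0.924). Of the read-length windows of Cyp2d9 16.7% occur in another gene, and of those of the other 3 genes 2.30% to 5.09%.

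Cyp2c44, an epoxygenase of arachidonic acid in kidney and liver, was the only tested gene of 16 Cyp2c members. It stood at 29.0, 26.1 and 32.7 FPKM in IVCC, compared with 28.2, 26.7 and 39.3 FPKM in Sham, with full overlap and a log2 fold change of -0.08 (interval -0.47 to 0.31). Cyp2s1, Cyp2f2 and Cyp2r1, of which Cyp2r1 hydroxylates vitamin D, averaged 1.41 to 7.89 FPKM in both groups, with overlap. None of the 5 Cyp2b members and none of the 9 Cyp3a members, inducible drug-oxidising enzymes of the liver, reached 1 FPKM. The Cyp3a transcripts with any value were Cyp3a13, at 0.118 to 0.395 FPKM in IVCC and 0.103 to 0.236 FPKM in Sham, and Cyp3a11 and Cyp3a25 below it.

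Cyp1b1 had the smallest p of all tested members and the largest positive difference. It oxidises oestrogens and polycyclic hydrocarbons and is expressed in many mesenchymal and vascular cells. Cyp1b1 stood at 3.53, 5.10 and 4.49 FPKM in IVCC, compared with 3.03, 3.22 and 2.37 FPKM in Sham, without overlap, a ratio of means of 1.52. Its log2 fold change was 0.47 with a standard error of 0.16 (limma, unadjusted p = 0.0205, adjusted p = 0.924). It was 0.37 to 0.59 without any 1 library, 0.62 on the TPM scale and 0.37 after the length and GC correction, and the groups did not overlap under any of these. Without IVCC replicate 2 its unadjusted p was 0.0718, without IVCC replicate 3 it was 0.0532 and without Sham replicate 3 it was 0.0613 (limma). Without the libraries numbered 3 of both groups it was 0.11 (limma). Cyp1a1, the classical target of the aryl hydrocarbon receptor, stood at 0.850, 0.967 and 0.987 FPKM in IVCC, compared with 0.999, 0.856 and 1.54 FPKM in Sham, with overlap. Cyp1a2 was listed at 0 in all libraries. Cyp1b1 and Cyp1a1 lie on chromosome 17 (79701537 to 79715061, minus strand) and chromosome 9 (57687928 to 57703824, plus strand).

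Markers of vessels and stroma are given beside Cyp1b1, and none was called. Of 15 endothelial markers 13 were higher in IVCC, and their summed level was 253 to 284 FPKM in IVCC and 223 to 247 FPKM in Sham. Of 12 tested fibroblast and smooth muscle markers 7 were higher and 5 lower (6 and 6 without Sham replicate 2). Their list of 15 genes, none at 0 in all libraries, had overlapping sums of 93.2 to 130.3 FPKM in IVCC and 106 to 129 FPKM in Sham. No overlap was found for 4 endothelial markers (26.7%), all higher. It was also found for 6 of the 12 others (50%), 5 higher and 1 lower, against 8.31% of all tested genes. The part of these markers in the Cyp1b1 result was not tested. In a whole kidney, more cells of a type and more RNA per cell cannot be told apart.

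Family 4 also includes the Cyp4f genes, hydroxylases of leukotrienes and long fatty acids. Of 10 Cyp4f members 4 were tested. Cyp4f13 had a mean of 24.7 ± 4.95 FPKM in IVCC, compared with 27.3 ± 4.78 FPKM in Sham, with overlap. Cyp4f14, which inactivates leukotriene B, stood at 1.12, 1.15 and 1.13 FPKM in IVCC, compared with 1.16, 1.49 and 1.95 FPKM in Sham. Its groups did not overlap, but at the nominal depths the values stand for 15.5 to 23.4 reads per library (log2 fold change -0.24, standard error 0.16, limma adjusted p = 0.924). Cyp4f16, Cyp4f17 and Cyp4v3 averaged 2.52 to 3.83 FPKM in both groups with overlap. The pseudogene Cyp4b1-ps2, on the minus strand between Cyp4a31 and Cyp4a32, had a mean of 2.70 ± 0.507 FPKM in IVCC, compared with 2.03 ± 0.573 FPKM in Sham. Since 23.9% of its windows occur in Cyp4b1, which is far more abundant, its value is uncertain.

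Below the filter, 28 members had a value above 0 in at least 1 library, with means up to 0.986 FPKM. Besides Cyp2j8, 2 of them had no overlap between the groups and were higher in IVCC. Cyp4f18, a leukotriene hydroxylase of myeloid cells, stood at 0.727, 0.625 and 0.652 FPKM in IVCC, compared with 0.380, 0.461 and 0.434 FPKM in Sham. These values stand for 8.02 to 9.004 nominal reads in IVCC and 3.96 to 4.97 in Sham, where nominal depth was lower. Cyp2c38 stood at 0.0910, 0.0880 and 0.0810 FPKM in IVCC, compared with 0, 0 and 0.0610 FPKM in Sham, which is the level of single reads. Of 14 tested macrophage and dendritic cell markers 13 were higher in IVCC. No overlap was found for 7 of the 14 (50%), all higher, against 8.31% of all tested genes. The list of 18 genes, none at 0 in all libraries, summed to 473 to 637 FPKM in IVCC and 410.3 to 434 FPKM in Sham. The part of these markers in the Cyp4f18 values was not tested.

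The members varied more by library than by group. Of the 31 tested members 22 were highest in replicate 3 among the IVCC libraries and 23 among the Sham libraries. Both held for 19 members (61.3%), against 32.4% of all tested genes. With each gene set against its own mean over all libraries, the median of the tested members lay at -0.11, -0.16 and 0.13 in IVCC replicates 1 to 3 and at -0.04, -0.07 and 0.28 in Sham (log2). The largest standard errors were those of Cyp2a5, Cyp4a14, Cyp2a4, Cyp4a10 and Cyp2d9, all of them highest in replicate 3 of both groups. The median of the PPAR-alpha targets lay at -0.11, -0.17 and 0.12 in IVCC and at -0.02, -0.07 and 0.29 in Sham. The share of the gene Kap in the FPKM sum was 10.96% to 13.1% in IVCC and 12.96% to 16.6% in Sham, highest in replicate 3 of each group. What these libraries share was not tested.

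**Figure D5:**
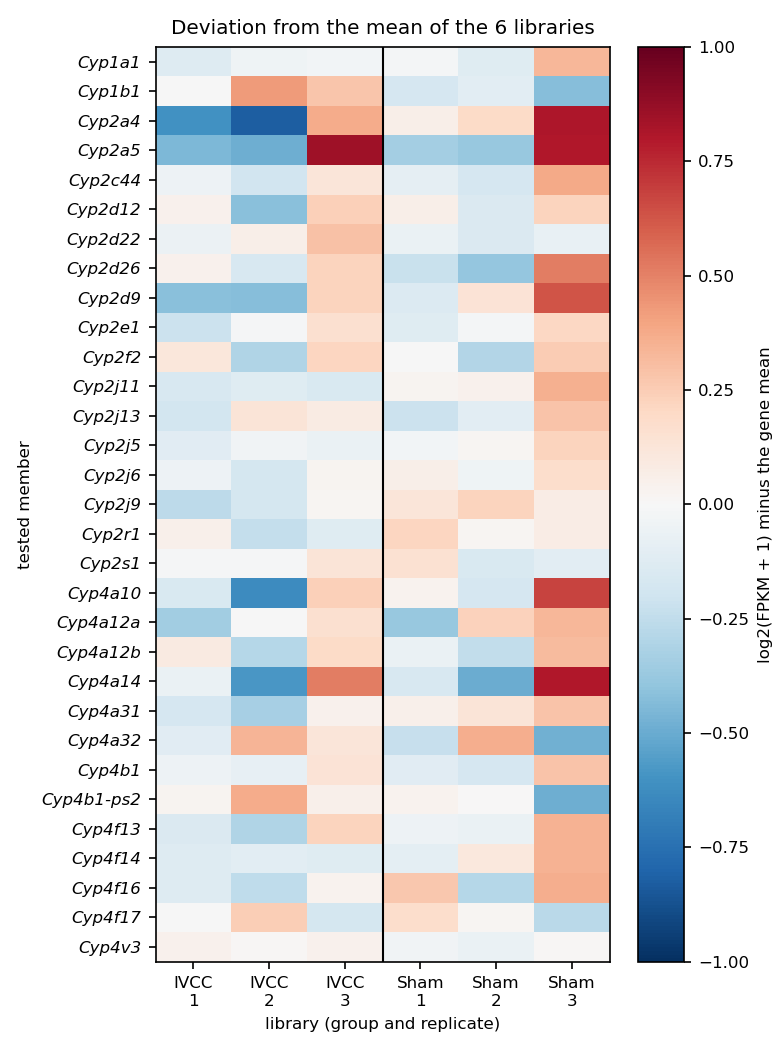
Difference of log2(FPKM + 1) from the gene's mean over the 6 libraries (colour scale) for each tested member (rows) in each library (columns, with a line between IVCC and Sham). Columns for replicate 3 are red for most members, with a median of 0.13 in IVCC and 0.28 in Sham, while Cyp1b1 is blue in Sham replicate 3.

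Genes around the P450 enzymes showed no called change in limma either. All 10 electron donors and membrane partners were tested, 3 higher and 7 lower in IVCC, with a median log2 fold change of -0.07. The electron carrier gene Cyb5a had a mean of 2366 ± 410 FPKM in IVCC, compared with 2722 ± 442 FPKM in Sham. Of 33 PPAR-alpha targets outside the P450 families 5 were higher and 28 lower, with a median of -0.10. No overlap was found for 4 of these targets (12.1%), against 8.31% of all tested genes. Without Sham replicate 3 there were 16 higher and 17 lower, with a median of -0.0079. On the TPM scale 22 were higher and 11 lower, and after quantile normalization 15 higher and 18 lower. Their median on the TPM scale was 0.076, below the 0.147 of all tested genes there. Acadm, a dehydrogenase of fatty acid oxidation, had a mean of 513 ± 21.1 FPKM in IVCC, compared with 691 ± 65.4 FPKM in Sham (log2 fold change -0.42, limma adjusted p = 0.924). The peroxisome gene Pex11a averaged 32.4 ± 3.41 and 25.6 ± 3.59 FPKM.

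Of 23 tested nuclear receptors and other regulators 11 were higher and 12 lower, with a median of -0.01. Hnf4a, a receptor that maintains proximal tubule and liver genes, had a mean of 231 ± 27.3 FPKM in IVCC, compared with 229 ± 9.05 FPKM in Sham. The growth hormone receptor gene Ghr averaged 294 ± 26.8 and 386 ± 48.5 FPKM, without overlap (limma adjusted p = 0.924). Of 4 tested aryl hydrocarbon receptor targets 3 were higher and 1 lower (2 and 2 without IVCC replicate 1 or any 1 Sham library), the lower one being Nqo1 at 60.6 ± 7.51 and 79.3 ± 16.8 FPKM. Among 18 tested genes of arachidonic acid release and its other oxidising enzymes 10 were higher and 8 lower, with 6 higher and 12 lower without Sham replicate 2 and 9 each without IVCC replicate 1 or 3. Ephx2, the epoxide hydrolase that inactivates the products of Cyp2j and Cyp2c, averaged 374 ± 65.9 and 458 ± 84.3 FPKM, with overlap. The phospholipase gene Pla2g5 averaged 5.57 ± 0.110 and 3.61 ± 1.40 FPKM, without overlap (limma adjusted p = 0.924). Of the 10 tested P450 genes of families above 4, 7 were higher and 3 lower, and 5 each without IVCC replicate 2 or 3 or without Sham replicate 1 or 2. Cyp7b1, an oxysterol hydroxylase, had a mean of 69.0 ± 20.5 FPKM in IVCC, compared with 152 ± 48.3 FPKM in Sham, without overlap (log2 fold change -1.11, limma adjusted p = 0.924). Cyp51 averaged 44.5 ± 1.80 and 74.1 ± 5.45 FPKM, also without overlap (log2 fold change -0.72). Its adjusted p of 0.790 (limma) was the lowest of all tested genes.

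Marker lists bear on which nephron segment the RNA came from. Of 20 markers of the third segment of the proximal tubule 16 were lower and 4 higher in IVCC. Of these markers 6 lower and 1 higher had no overlap (35%), against 8.31% of all tested genes. The summed level of the 20 markers was 7524 to 10220.4 FPKM in IVCC and 9515 to 12695 FPKM in Sham. Their median log2 fold change was -0.27 (-0.09 on the TPM scale, with 13 of 20 lower). Of 15 markers of the first 2 segments 10 were higher and 5 lower, with a median of 0.11. Among 19 tested sex-dependent kidney genes 15 were lower and 4 higher, with a median of -0.19 (-0.01 on the TPM scale, with 11 of 19 lower). All tested genes had a median of 0.147 on the TPM scale. The transporter gene Slc22a7, which is in both the third-segment and the sex-dependent list, had a mean of 80.04 ± 16.5 FPKM in IVCC, compared with 149 ± 29.5 FPKM in Sham, without overlap. The part of these genes in the values of Cyp2j, Cyp4a and Cyp2a4 was not tested.

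Markers of other tissues that express P450 genes were partly at 0. Of 18 hepatocyte markers 4 were listed at 0 in all libraries (Serpina3k, Cps1, Mup3 and Mup20). All 8 tested were lower in IVCC, each with overlap between the groups. Without Sham replicate 3, 6 were lower and 2 higher, and their median moved from -0.31 to -0.079. The split was the same without the libraries numbered 3, and 7 lower and 1 higher without IVCC replicate 3. The list summed to 214 to 380.02 FPKM in IVCC and 279 to 550.3 FPKM in Sham, most of it Ttr. Of 12 adipocyte markers 6 were at 0 in all libraries, among them Adipoq and Plin1, and the list summed to 100.3 to 168 FPKM in IVCC and 105 to 169.8 FPKM in Sham. Of 12 adrenal cortex markers 4 were at 0, among them Cyp11b1 and Cyp11b2, with sums of 95.7 to 118 FPKM in IVCC and 118 to 138 FPKM in Sham, most of it the electron carrier gene Fdx1. Of 8 urothelium markers 1 was tested, with summed levels of 1.01 to 2.14 FPKM in IVCC and 1.17 to 11.3 FPKM in Sham. The 12 principal and intercalated cell markers (8 higher, 4 lower) and the 11 markers of the thick ascending limb and distal tubule (7 higher, 4 lower) had medians of 0.04 and 0.035. Without Sham replicate 2 these splits turned to 4 higher and 8 lower, and to 4 higher and 7 lower. The first was 5 higher and 7 lower without IVCC replicate 1 or 3 and 6 each without Sham replicate 3, and the second 4 higher and 7 lower without IVCC replicate 1.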

How the data were processed

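Kidney RNA of 3 IVCC and 3 Sham samples, grouped by title, went into a stranded mRNA preparation and was read from a single end over 75 bp, per the labels' protocols. The authors deposited FPKM for each gene symbol, with a column for every library. The submitters' processing notes name mm10 and the tools TopHat2 (2.0.13), Bowtie2 (2.2.3), SAMtools (0.1.19) and Cufflinks (2.2.1), without roles. Not given in the sources used here are its annotation, its treatment of reads shared by gene copies and its scaling among libraries.

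The test covered 12090 genes whose mean FPKM reached 1, on log2(FPKM + 1), which understates the change of low genes. It was a two-sided limma fit (version 3.58.1, R 4.3.3, eBayes with trend), with Benjamini-Hochberg adjustment over all these genes and 0.05 as threshold. No permutation test was run, since 3 against 3 cannot pass that threshold. The fit was tested on simulated data with independent errors, which do not hold the likeness between same-numbered libraries seen here. Nominal depth came from transcripts of 1500 to 5000 bp with values of 0.02 to 0.1 FPKM, assuming fragments of 200 bp. Of these values 60.9% to 65.0% were whole within 0.1, too few to recover counts. Gene positions are from GENCODE M21 (GRCm38, the assembly mm10 names), which held all 31 tested members, Cyp2c44 under another name.

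The members and lists were chosen with earlier results of these data known. Named were all tested Cyp4a and Cyp2j genes, Cyp2e1, Cyp4b1, members of at least 10 FPKM, with an unadjusted p under 0.05 or without overlap, and the 3 most abundant of each family. From every other list, genes among those with the smallest p or highest level were named. Alternatives covered pseudocount, filter, scaling, eBayes settings, the replicate number as a block, length and GC correction, and libraries left out.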

Additional observations from a re-analysis of the deposited data

How the results depend on the processing

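Up to 19 alternatives were computed for each of 24 named members. Of 452 log2 fold changes 399 had the sign reported and 53 the opposite, and 10 members kept theirs throughout. The filter, the eBayes settings and the replicate block cannot change a fold change, so part of the 399 was fixed in advance. The lowest adjusted p was 0.0856 (Cyp2a4, limma, under the replicate block). The tested members' median changed sign on the TPM scale (0.087) and without Sham replicate 3 (0.0081), and the spread between replicates (SD 0.177) exceeds the median itself. Members with an unadjusted p under 0.05 numbered 6 with no filter on low values (4.44% of all genes), 1 with the filter raised to 5 FPKM (3.29%), 1 with eBayes without trend (3.68%), 4 without the libraries numbered 3 (8.7%), and 0 to 4 with 1 library left out (1.79% to 8.52%). They were Cyp1b1, Cyp2j11 and Cyp4a31 with median-ratio scaling (3.66% of all genes). On the TPM scale (2.85%) and with quantile normalization (4.01%) they were Cyp1b1 and Cyp2a4. With the length and GC correction (5.06%) they were Cyp1b1 and Cyp4a31. Members without overlap numbered 2 after the length and GC correction (9.89% of all genes), 15 or 48.4% without the libraries numbered 3 (40.7%), and 8 to 12 with 1 library left out (12.1% to 32.5%). Genes called over the table numbered 4 without the libraries numbered 3 and 0 to 4 with 1 library left out. The cause was not tested, beyond fewer libraries making separation easier.

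Same-numbered libraries correlated at -0.11, 0.34 and 0.32 in their deviations over all genes, and differently numbered ones at -0.37 to 0.068. Numbers 2 and 3 thus stood above every unlike pair and number 1 did not, so the numbers were not taken to pair the samples. Over the members alone each library correlated best with its own number (0.51, 0.78 and 0.77), a hint from the data and not the design. With the replicate number as a block 7 of 31 members (22.6%) had an unadjusted p under 0.05, against 19.8% of all genes, and no gene was called. Cyp2a4, lower in IVCC than in Sham at each number, then had an unadjusted p of 0.000793 (limma). With the block and the length and GC correction together 7 had such a p (13.7% of all genes), 2 members had no overlap, and 1 gene was called.

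Signs of the log2 fold change turned as follows. On the TPM scale they were Cyp4b1 0.17, Cyp2e1 0.13, Cyp2j5 0.032, Cyp2d12 0.087, Cyp2a5 0.12, Cyp4a12a 0.048, Cyp4a14 0.081, Cyp2j6 0.037, Cyp2c44 0.091, Cyp4a12b 0.17, Cyp4f13 0.022. With median-ratio scaling they were Cyp4b1 0.014, Cyp4a12b 0.013. With quantile normalization they were Cyp4b1 0.13, Cyp2e1 0.19, Cyp2j5 0.029, Cyp2d12 0.024, Cyp2a5 0.065, Cyp4a12b 0.023. After the length and GC correction, with or without the replicate block, they were Cyp4b1 0.055, Cyp2e1 0.062, Cyp2d12 0.029. Without the libraries numbered 3 they were Cyp4b1 0.072, Cyp4a14 0.0048, Cyp2c44 0.0056, Cyp4a12b 0.057. With 1 library left out the ranges were Cyp4b1 -0.086 to 0.14, Cyp2e1 -0.14 to 0.053, Cyp2a5 -0.50 to 0.33, Cyp4a12a -0.35 to 0.016, Cyp2j13 -0.083 to 0.17, Cyp2d12 -0.23 to 0.097, Cyp4a14 -0.37 to 0.28, Cyp4a12b -0.13 to 0.15, Cyp2d26 -0.11 to 0.34, Cyp2c44 -0.18 to 0.086, Cyp1a1 -0.22 to 0.0056. The cause was not tested.

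FPKM hold no counts, so the depth behind each value is only nominal. This nominal depth was lower for the Sham than for the IVCC libraries, and the scaling behind it is not given.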
